A study of Mus musculus with 22 samples.

Results

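The hypoxia-inducible factor (HIF) pathway was examined through 10 genes whose transcripts were read in mammary tissue of mice: Hif1a, the oxygen-labile alpha subunit of the factor, Egln1 and Egln3, the prolyl hydroxylases that mark that subunit for destruction, and Bnip3, Ddit4, Ndrg1, Adm, P4ha1, Slc2a1 and Car9, which are direct targets of the factor. The 10 genes were taken by their symbols from a table of 52526 symbols. No threshold on their values entered the choice, although earlier results of these data were known when it was made. The samples were the left 4th mammary tissues of 22 female C57BL/6J mice of 7 to 8 weeks, 1 library for each mouse, all labelled as 1 experiment. Each fat pad, in all 4 groups, had received luciferase-expressing EO771 cells, a syngeneic mouse mammary cancer line, and was collected 24 hours later, so every library holds RNA of host tissue and of whatever engrafted cells the dissection took. Wheel-running mice had an angled wheel mounted on a hub in the home cage for 2 weeks before engraftment and until collection, whereas sedentary control mice had only the hub. Mice of both kinds were given intravenous liposomes 24 hours before engraftment and again at engraftment, filled either with PBS or with clodronate, an agent that kills phagocytes such as macrophages. The groups were 6 sedentary control mice with PBS liposomes, 6 wheel-running mice with PBS liposomes, 5 sedentary control mice with clodronate liposomes and 5 wheel-running mice with clodronate liposomes. No group lacked the engrafted cells or the liposomes, and no running distance or tissue oxygen value is used here.

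Oxygen acts on this pathway mainly after transcription. When oxygen is present, prolyl hydroxylases modify the alpha subunits, the VHL ubiquitin ligase binds the modified protein, and the proteasome removes it. When oxygen is short, the alpha subunit persists, pairs with ARNT and binds short DNA cores near its targets, which include genes for glucose uptake, collagen maturation, mitophagy and vessel tone. Several targets, Egln3 among them, feed back on the pathway by restoring hydroxylation. Transcript levels of the targets are therefore commonly read as a trace of HIF activity, while the transcript of Hif1a itself need not follow its protein. White adipose tissue, the bulk of a mouse fat pad, is known to run low in oxygen when it expands.

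The promoters of these genes were searched for the binding core of the factor, although the genes were chosen by symbol and not by such a core. The letters ACGTG and GCGTG were searched on both strands in the 250 bases before each start site in the RefSeq promoter table of build GRCm38.p6. Matches that shared letters, such as an ACGTG and its own reverse complement, were counted separately. Of the 10 genes, 9 had an entry, and all 9 windows held at least 1 such core, with 5 in the window of Bnip3 and 1 each in those of Egln3 and Car9. Among all 32851 windows of the table the share with a core was 38.6%, among windows of tested genes 53.2%, and among tested genes whose GC content lay within the range of these genes 58.9%. A core is a match of letters and not a bound site. Stretches of 65 bases are printed for the 6 genes in which a core with 30 bases on each side lay inside the window and outside annotated exons. The only cores of Egln3 and Car9, 229 and 18 bases before the start, lay too near an end of the window. In the printed stretches each core is in capitals and a core on the opposite strand is written as CACGT or CACGC. The stretches read 5′ to 3′ on the strand of the gene. They lie at chr12:73907767-73907831 for Hif1a, chr8:124949346-124949410 for Egln1, chr7:138909571-138909635 for Bnip3, chr10:59951851-59951915 for Ddit4, chr7:110627573-110627637 for Adm and chr10:59323140-59323204 for P4ha1. Those of Egln1, Bnip3 and Ddit4 are on the minus strand and the other 3 on the plus strand.
Hif1a: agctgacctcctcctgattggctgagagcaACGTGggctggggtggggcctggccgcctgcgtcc
Egln1: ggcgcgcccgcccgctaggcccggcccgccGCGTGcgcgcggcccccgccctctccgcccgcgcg
Bnip3: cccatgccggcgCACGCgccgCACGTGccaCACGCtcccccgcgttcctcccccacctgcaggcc
Ddit4: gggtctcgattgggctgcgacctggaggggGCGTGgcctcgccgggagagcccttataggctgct
Adm: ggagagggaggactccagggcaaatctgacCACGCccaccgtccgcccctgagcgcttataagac
P4ha1: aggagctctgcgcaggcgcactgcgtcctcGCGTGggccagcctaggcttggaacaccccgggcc
The Bnip3 stretch stands out among those printed for its 3 blocks of cores within 65 bases, the middle one a CACGTG palindrome that reads as a core on both strands.

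Levels are given as CPM, the reads of a gene scaled to all reads of its library, unmapped ones included. The libraries held 13256467 to 20484578 reads, and every value under 1 CPM had been set to 1 in the deposited values, so that a gene listed at 1 may have had any number of reads up to 13 to 20, depending on the library. At this floor stood 73.4% to 76.1% of the symbols. Because the libraries were made from the 3′ ends of transcripts, read numbers do not grow with transcript length. Adipocyte markers were high in all mice, 10 of 10 being measured, with a summed level of 11207 to 30911 CPM. In 5 libraries the score of 12 lymphocyte genes (their mean log2(CPM + 1)) stood at 4.52 to 6.00, where the other 17 had 1.23 to 1.65, and these 5 were 1 sedentary control and 1 wheel-running mouse with PBS liposomes and 3 wheel-running mice with clodronate liposomes. For the comparisons and relations named below, values without these 5 mice are given where they differ in the call or in size. Of the 10 genes, 9 lay above the floor in all 22 mice. Car9, a membrane carbonic anhydrase that is among the most tightly hypoxia-dependent genes, was listed at the floor in 21 of the 22 mice. It reached 1.15 CPM, or 18 reads, in mouse 2 of the wheel-running group with clodronate liposomes, which is a level barely above what the floor hides. Car9 was therefore not tested, and any difference in it under the floor was hidden by the deposited values.

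**Figure D1:**
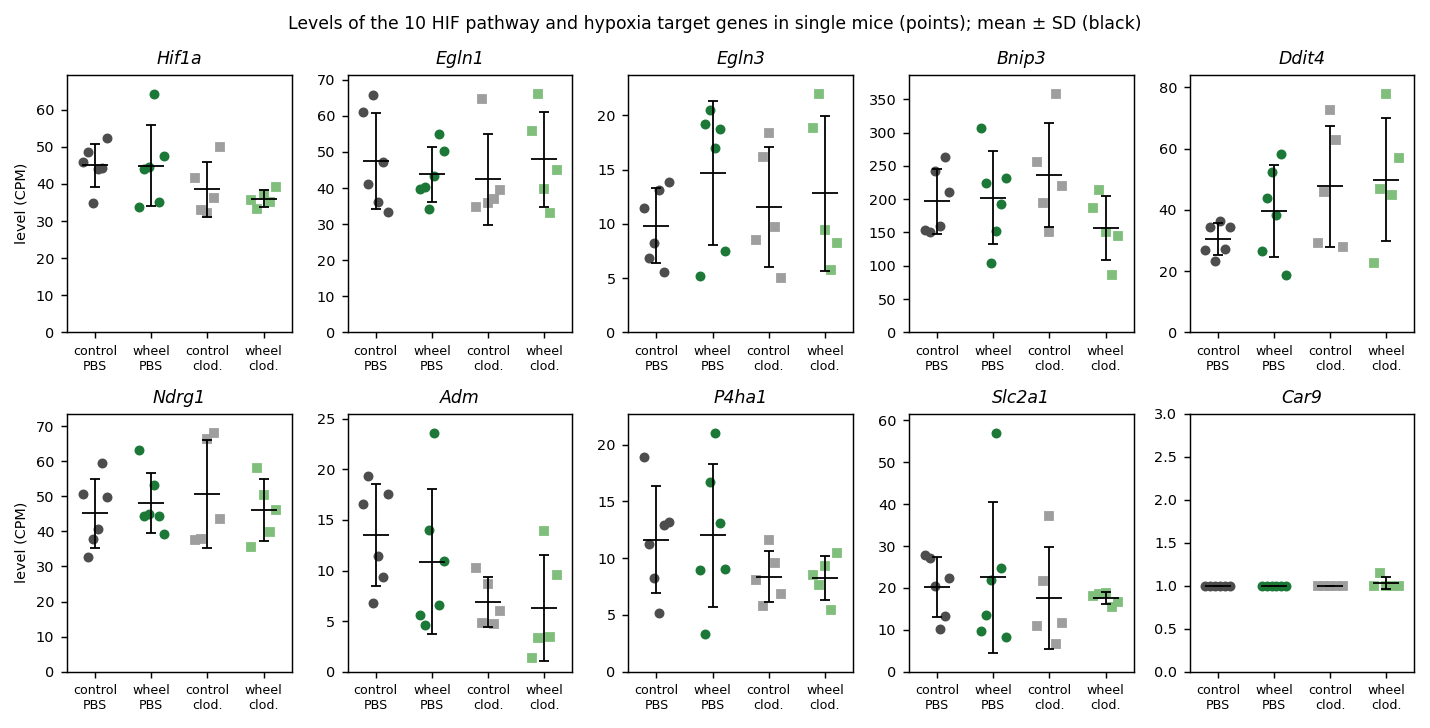
Level of each of the 10 genes (vertical axes, CPM, starting at 0) in single mice (points) of the 4 groups (horizontal axes), with mean ± SD in black. The ranges of the groups overlap in every panel, the highest Slc2a1 value is 57.0 CPM in 1 wheel-running mouse with PBS liposomes, and Car9 lies at the floor of 1 CPM in all but 1 mouse.

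Hif1a varied little between mice. Its level ran from 35.0 to 52.3 CPM (median 45.0) in sedentary control mice with PBS liposomes and from 33.8 to 64.3 CPM (median 44.3) in wheel-running mice with PBS liposomes. With clodronate liposomes it was 41.6, 33.0, 32.1, 36.1 and 49.9 CPM in the sedentary control mice and 35.7, 33.2, 37.2, 35.0 and 39.3 CPM in the wheel-running mice. The 4 ranges overlapped, and the clodronate groups had the lower means, 38.5 ± 7.34 CPM (SD, n = 5) and 36.1 ± 2.28 CPM (SD, n = 5) against 45.0 ± 5.83 CPM (SD, n = 6) and 44.9 ± 10.97 CPM (SD, n = 6).

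The hydroxylases differed from each other in level and spread. Egln1, the main oxygen sensor of the pathway in most tissues, ran from 33.2 to 66.2 CPM over all mice with group means from 42.4 to 47.9 CPM. Egln3, the hydroxylase that is itself induced by HIF, ran from 5.05 to 22.0 CPM over all mice. In wheel-running mice with PBS liposomes its median was 17.9 CPM, with a lowest value of 5.17 and a highest of 20.5 CPM, whereas in the matching sedentary control mice the median was 9.86 CPM, with a range of 5.53 to 13.9 CPM. In the clodronate groups Egln3 stood at 8.49, 16.2, 18.3, 9.70 and 5.05 CPM in sedentary control mice and at 18.9, 22.0, 9.42, 5.71 and 8.2 CPM in wheel-running mice. All 4 groups thus had mice near the low end, and the higher values of the wheel-running mice with PBS liposomes were found in 4 of 6 mice only.

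Bnip3, a mitochondrial receptor for mitophagy, was read from 1396 to 5799 reads per mouse. In the PBS groups it ran from 151 to 263 CPM (median 185) in sedentary control mice and from 105 to 307 CPM (median 209) in wheel-running mice. With clodronate liposomes it was 256, 195, 151, 358 and 220 CPM in sedentary control mice and 187, 214, 151, 86.1 and 145 CPM in wheel-running mice. The last group had the lowest mean, 157 ± 48.5 CPM (SD, n = 5), and sedentary control mice with clodronate liposomes the highest, 236 ± 78.3 CPM (SD, n = 5), yet their ranges overlapped.

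Ddit4 encodes an inhibitor of the growth kinase mTORC1 and responds to glucocorticoids and other stresses besides hypoxia. It was narrow in sedentary control mice with PBS liposomes, at 23.2 to 36.4 CPM (median 30.8), and wider in wheel-running mice with PBS liposomes, at 18.8 to 58.1 CPM (median 41.1). With clodronate liposomes it read 29.2, 45.8, 72.5, 62.9 and 27.9 CPM in sedentary control mice and 22.8, 47.0, 78.0, 45.0 and 56.8 CPM in wheel-running mice. Each of the other 3 groups held mice above the highest value of the sedentary control mice with PBS liposomes, and 2 of these groups also held mice within its range, while the lowest wheel-running mouse with clodronate liposomes, at 22.8 CPM, lay just under it.

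Adm, the precursor of the vasodilator peptide adrenomedullin, had the widest range as a fold, going from 1.31 CPM (19 reads) to 23.6 CPM (376 reads). It ran from 6.81 to 19.3 CPM (median 13.99) in sedentary control mice and from 4.58 to 23.6 CPM (median 8.74) in wheel-running mice with PBS liposomes. In the clodronate groups it stood at 10.2, 4.82, 8.65, 4.76 and 5.96 CPM in sedentary control mice and at 1.31, 3.33, 13.9, 3.40 and 9.59 CPM in wheel-running mice. Values under 4 CPM occurred only among wheel-running mice with clodronate liposomes, in 3 of 5 mice, while the other 2 mice of that group lay within the range of the PBS groups.

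Slc2a1, which encodes the basal glucose transporter GLUT1, ran from 10.3 to 27.8 CPM (median 21.5) in sedentary control mice with PBS liposomes. In wheel-running mice with PBS liposomes it ran from 8.28 to 57.0 CPM (median 17.6), and the next highest of these mice stood at 24.8 CPM. With clodronate liposomes it read 10.8, 21.8, 37.1, 6.67 and 11.5 CPM in sedentary control mice but 18.05, 18.6, 18.9, 15.4 and 16.7 CPM in wheel-running mice. The last group was thus tight, with an SD of 1.45 CPM (n = 5) against 7.17 to 18.1 CPM in the other 3 groups. P4ha1, a catalytic subunit of the collagen prolyl hydroxylase, ran from 3.32 to 21.0 CPM over all mice with group means from 8.25 to 12.0 CPM. Ndrg1, a stress-responsive gene often used as a hypoxia marker, had group means from 45.2 to 50.6 CPM and a whole range of 32.7 to 68.0 CPM.

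The first question was whether wheel-running mice had less transcript of HIF targets than sedentary control mice, with PBS liposomes and with clodronate liposomes. With PBS liposomes none of the 9 tested genes passed an adjusted p of 0.05 in limma (adjusted over 15138 genes, two-sided), where percent called over all genes was 0, and none passed an unadjusted p of 0.05, against 4.91% of all genes. The estimated log2 changes of CPM + 1, wheel-running minus sedentary, ran from -0.40 for Adm to 0.45 for Egln3, with 3 genes higher and 6 lower. Their median was -0.025, against -0.085 over all genes tested, of which 63.8% had a negative estimate. The interval for Bnip3, -0.51 to 0.51 (95% confidence, estimate -0.0017), was centred near 0, and that for Hif1a was narrower, -0.33 to 0.28. The intervals of the more variable genes were wider, at -0.33 to 1.22 for Egln3, -1.27 to 0.46 for Adm and -0.88 to 0.73 for Slc2a1. The sign of the small estimates of Hif1a, Egln1, Bnip3, P4ha1 and Slc2a1 turned when the libraries were scaled to their upper quartile, a scaling that moved the median of all genes to -0.0012.

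With clodronate liposomes 1 of the 9 genes, Bnip3, had an unadjusted p under 0.05, against 10.4% of all genes. Its log2 change in wheel-running mice was -0.59 (SE 0.27, 95% interval -1.15 to -0.029, limma adjusted p = 0.441), so it did not pass after adjustment, and 0.00661% of all genes did. The adipocyte marker score, the mean log2(CPM + 1) of 10 adipocyte genes, moved the same way, from 10.1 ± 0.54 in sedentary control mice to 9.74 ± 0.25 in wheel-running mice (SD, n = 5 each), and the summed level of the 10 genes ran from 11207 to 28949 CPM and from 15187 to 23035 CPM. With that score as a covariate the Bnip3 estimate was -0.27, and its part in the result was not otherwise tested. The wheel-running mice with the lower Bnip3 values, mice 3, 4 and 5, were also those 3 of the 5 with lymphocyte marker scores of 5.87, 6.00 and 5.33, where the other 2 had 1.37 and 1.45. Without the 5 mice of the study whose lymphocyte score was above 3, which leaves 2 wheel-running mice with clodronate liposomes, the Bnip3 estimate was -0.17 (limma adjusted p = 0.984). The estimates of the other 8 genes ran from -0.37 for Adm to 0.23 for Slc2a1, and the median over the 9 genes was -0.013, against 0.0045 over all genes.

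Whether the wheel difference depended on the liposome was asked by the interaction term. None of the 9 genes passed an unadjusted p of 0.05, against 7.58% of all genes, and none passed after adjustment, where percent called was 0. The largest interaction in size was that of Bnip3, at -0.59 (SE 0.37, limma adjusted p = 0.727).

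**Figure D2:**
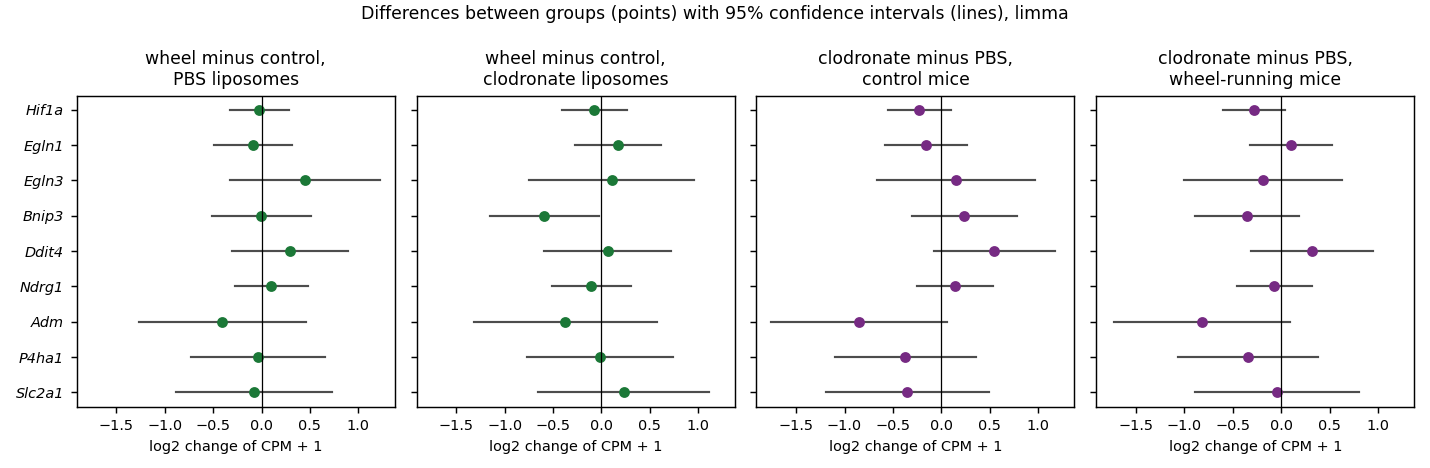
Log2 change of CPM + 1 (horizontal axes) of the 9 tested genes in the 4 comparisons of groups, with points for the limma estimates and lines for 95% confidence intervals. All intervals cross 0 except that of Bnip3 in wheel-running against sedentary control mice with clodronate liposomes, which ends at -0.029, and no gene passed after adjustment.

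The second question was whether mice given clodronate liposomes differed from mice given PBS liposomes. Over both activity groups together, Adm and Hif1a had an unadjusted p under 0.05, 2 of 9 genes against 10.4% of all genes, and neither passed after adjustment, where percent called was 0.205 (31 genes, all lower with clodronate). Adm had an estimated log2 change of -0.84 with clodronate (SE 0.31, 95% interval -1.48 to -0.19, limma adjusted p = 0.308), equal to 0.56 times the PBS level on the CPM + 1 scale. With all mice kept, the estimate was alike in sedentary control mice, -0.85, and in wheel-running mice, -0.82, and these comparisons share no mice. Hif1a had an estimate of -0.25 (SE 0.11, 95% interval -0.48 to -0.025, limma adjusted p = 0.414), with -0.23 in sedentary control and -0.28 in wheel-running mice. Ddit4 had a positive estimate of 0.43 (SE 0.21, 95% interval -0.010 to 0.87, limma adjusted p = 0.493), which was 0.14 with the adipocyte score as a covariate, whereas Adm was then at -1.11. Without the 5 mice of high lymphocyte score the estimate of Adm was -1.17 (limma adjusted p = 0.185), that of Hif1a -0.27 and that of Ddit4 0.25. The Adm estimate was then no longer alike in the activity groups, at -0.74 in sedentary control and -1.60 in wheel-running mice. Only 2 wheel-running mice with clodronate liposomes remained in that fit. The macrophage marker score, over 10 genes, averaged 4.91 and 4.83 in the PBS groups and 4.49 and 4.67 in the clodronate groups. All 10 macrophage genes were used, with Fcgr1 at the floor in 4 mice. The ranges of the score overlapped, at 4.00 to 5.70 and 4.07 to 5.14 with PBS and 4.15 to 4.81 and 3.94 to 5.14 with clodronate. Among wheel-running mice with clodronate liposomes, mice 3, 4 and 5, of high lymphocyte score, had 5.10, 4.96 and 5.14. Mice 1 and 2 had 3.94 and 4.21. A difference in this score between the liposomes was not tested. In whole tissue, fewer cells of a type and less RNA per cell cannot be told apart.

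Taken within each activity group, none of the 9 genes passed an unadjusted p of 0.05 for clodronate, against 6.99% of all genes in sedentary control mice and 11.6% in wheel-running mice. After adjustment none passed either, where percent called was 0 and 0.00661. Across the 9 genes and the 4 comparisons of groups, 36 of 36 pairs of ranges overlapped. Groups that did not overlap were found for 0.264% and 1.27% of all genes in the wheel comparisons, and for 0.634% and 1.26% in the clodronate comparisons. In data simulated for all 4 groups and fitted together, the two-sided limma test compared the 6 against 6 mice with PBS liposomes. It recovered 85% of the genes given a log2 change of 2 and 38.5% of those given a log2 change of 1. These rates are over 200 changed genes of all kinds, with the mice drawn independently for each gene. The simulated SD between mice was taken from log2(CPM + 1), capped at 1 and applied to CPM, so the rates need not hold for these data. Recovery for genes as variable as Adm or Slc2a1 was not looked at separately.

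Other genes of the pathway gave the same counts after adjustment. Of 14 further genes of the machinery that senses oxygen and degrades the alpha subunits, 12 were tested and none passed in any of the 6 comparisons. Epas1, the alpha subunit HIF-2, ran from 78.2 to 171 CPM with a median of 122 CPM, while Hif3a and Arnt2 were listed at the floor in 21 and 20 mice. In wheel-running mice with PBS liposomes 11 of the 12 had negative estimates, where 63.8% of all genes had, with a median of -0.21 against -0.085 over all genes. An unadjusted p under 0.05 was found for 2 of the 12, against 4.91% of all genes. Hif1an, the asparaginyl hydroxylase that blocks coactivator binding, had the smallest p there. It stood at 14.5 to 25.1 CPM (median 20.8) in sedentary control mice and at 6.23 to 21.8 CPM (median 10.3) in wheel-running mice, a log2 change of -0.84 (SE 0.29, limma adjusted p = 0.987). In wheel-running mice the estimate of Hif1an for clodronate minus PBS liposomes was 0.86 (SE 0.31, limma adjusted p = 0.276), a comparison that shares its PBS mice with the previous one. These estimates were, without the 5 mice of high lymphocyte score, -0.72 and 0.69, and 9 of the 12 machinery genes were then negative in the first.

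Rnf7, a RING subunit of cullin ligases, had the smallest p for clodronate in sedentary control mice. It averaged 25.7 ± 7.68 CPM (SD, n = 6) with PBS and 13.4 ± 2.33 CPM (SD, n = 5) with clodronate, a log2 change of -0.86 (SE 0.23, limma adjusted p = 0.387). The highest clodronate value, 16.6 CPM, lay just below the lowest PBS value, 16.8 CPM, so these groups did not overlap, as was found for 0.634% of all genes. Rbx1, the RING subunit that works with VHL, had an estimate of -0.27 in wheel-running against sedentary control mice with clodronate liposomes (limma adjusted p = 0.589).

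All 29 further targets were tested, and again none passed in any comparison. Fam162a, a hypoxia-induced mitochondrial protein, had the smallest p of the list in both wheel comparisons, which share no mice. With PBS liposomes it ran from 32.0 to 49.4 CPM (median 40.7) in sedentary control mice and from 20.9 to 30.4 CPM (median 27.0) in wheel-running mice, with no overlap. Groups without overlap were found for 0.264% of all genes in this comparison. The log2 change of Fam162a was -0.63 (SE 0.18, limma adjusted p = 0.961). With clodronate liposomes the ranges were 26.1 to 51.1 CPM and 17.8 to 28.2 CPM, which overlapped, and the log2 change was also -0.63 (SE 0.19, limma adjusted p = 0.257). In the wheel comparison with clodronate liposomes 21 of the 29 targets had negative estimates, where 49.3% of all genes had, and the median was -0.14 against 0.0045 over all genes. Of the 29, 3 had an unadjusted p under 0.05, all negative. Over all genes 10.4% had such a p, 514 of them negative and 1065 positive. Of the 29, 15 were negative without the 5 mice of high lymphocyte score, with a median of -0.032 against -0.042 over all genes, while Fam162a stood at -0.66 there and at -0.53 with PBS liposomes. With PBS liposomes 17 of 29 were negative and the median, -0.081, was close to that of all genes, -0.085.

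Bhlhe40, a transcriptional repressor of the circadian and hypoxia responses, led this list for clodronate, with -0.61 over both activity groups (SE 0.20, limma adjusted p = 0.241) and means of 41.0 and 36.2 CPM with PBS against 22.4 and 24.6 CPM with clodronate. Over both activity groups 5 of the 29 targets had an unadjusted p under 0.05, all with a negative estimate. Over all genes 10.4% had such a p, 1256 of them negative and 323 positive. Such a p was found for 1 target with a negative and 2 with a positive estimate when the 5 mice of high lymphocyte score were left out. P4ha2, a paralogue of P4ha1 in collagen hydroxylation, had the smallest p of the list for clodronate in wheel-running mice and for the interaction. It averaged 10.4 ± 3.38 CPM (SD, n = 6) with PBS and 4.85 ± 2.94 CPM (SD, n = 5) with clodronate in wheel-running mice, a log2 change of -1.06 (SE 0.38, limma adjusted p = 0.277), and its interaction was -1.38 (SE 0.54, limma adjusted p = 0.625). These values were -1.44 and -1.89 without the 5 mice, and neither passed (limma adjusted p = 0.41 and 1).

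Between 68.8% (Adm) and 96.4% (Ndrg1) of the sum of squares of log2(CPM + 1) of the 9 genes lay within groups. The SD between mice of log2(CPM + 1), with group means removed, was 4.24 times the SD that counting alone would give for Hif1a and 17.2 times for Bnip3, with the other 7 tested genes in between. Compared with 1000 genes of like level each, Slc2a1 varied more than 92.3%, Adm more than 88.9%, Ddit4 more than 88.4%, and Egln3 and Bnip3 more than 87.3% each. Hif1a varied more than only 11.6% of genes of its level, and Ndrg1 and Egln1 lay near the middle, at 44.8% and 56.6%. The same mouse often carried the extremes of several genes. Mouse 4 of the wheel-running group with PBS liposomes had the highest Hif1a, Adm, P4ha1 and Slc2a1 of all 22 mice. Mouse 4 of the sedentary control group with clodronate liposomes had the highest Bnip3 and Ndrg1 and the lowest Slc2a1.

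The 9 genes did not vary as 1 block. With group means removed, 22 of the 36 pairs had a positive Pearson r across the 22 mice, with a median of 0.11 and a range from -0.55 for Bnip3 with Slc2a1 to 0.57 for Hif1a with Adm. By Pearson r none of the 36 passed an adjusted p of 0.05 (100000 permutations of mice within groups, two-sided), 6 having an unadjusted p under 0.05, and by Spearman's rho 1 passed. This was Hif1a with Adm (rho = 0.70, permutation p = 0.0003, adjusted p = 0.0108, and r = 0.57, permutation p = 0.00286, adjusted p = 0.103). Their r was 0.54 without the 2 mice farthest from the median of Hif1a, 0.84 within the 12 PBS mice, 0.23 within the 10 clodronate mice and 0.65 without the 5 mice of high lymphocyte score (adjusted p = 0.191, permutation). Adm, P4ha1 and Slc2a1 were joined by r values of 0.40 to 0.56, none of which passed.

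**Figure D3:**
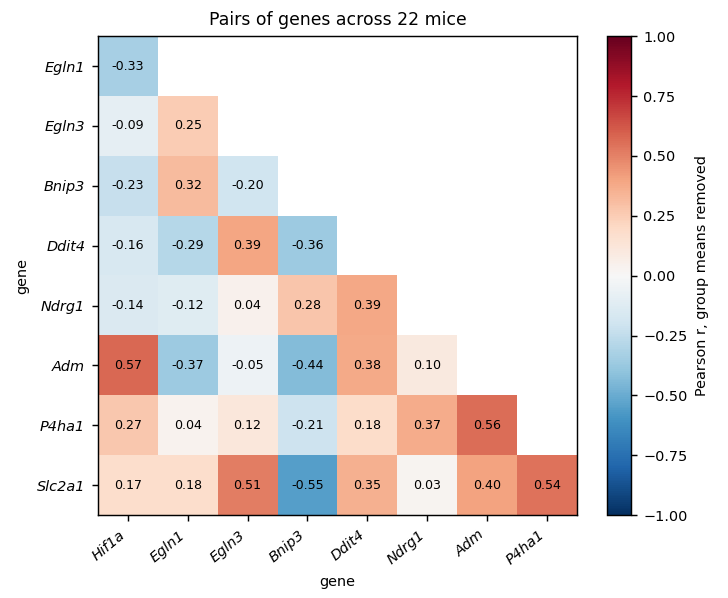
Pearson r of log2(CPM + 1) across 22 mice with group means removed, for each pair of the 9 tested genes (both axes), on a colour scale from -1 to 1. The highest value is 0.57 for Hif1a with Adm and the lowest -0.55 for Bnip3 with Slc2a1, and positive and negative pairs are mixed.

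Each gene was also set against 11 scores, each the mean log2(CPM + 1) of marker genes of a tissue component or response. These relations describe which tissue makeup moved with a gene and were computed with group means removed. Of 99 relations, 11 passed an adjusted p of 0.05 by Pearson r and 9 by Spearman's rho (permutation, two-sided, adjusted over the 99). Hif1a, Egln1, Ndrg1 and P4ha1 had none among the 11, Slc2a1 had 4, Bnip3 had 3, Adm had 2, and Egln3 and Ddit4 had 1 each.

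Bnip3 rose with the adipocyte score (r = 0.78, rho = 0.81, permutation p = 7e-05 and 5e-05, adjusted p = 0.00693 and 0.00495, 22 mice). The r was 0.78 without the 2 mice farthest from the median Bnip3, 0.82 within the PBS mice and 0.74 within the clodronate mice, and 1.78% of 9337 genes had an r with this score of at least that size. Bnip3 also rose with the endothelial score (r = 0.69, rho = 0.71, permutation p = 0.00089 and 0.00054, adjusted p = 0.0147 and 0.0125) and fell with the score of dividing-cell genes (r = -0.71, rho = -0.72, permutation p = 0.00047 and 0.00057, adjusted p = 0.0101 and 0.0125). Without its 2 farthest mice r was 0.56 and -0.65, and 3.44% and 2.8% of genes had an r of at least that size with these scores. These 3 scores were tied to each other, the adipocyte score by r = 0.84 to the endothelial score and by r = -0.76 to the dividing-cell score, so that they do not give 3 separate relations.

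Slc2a1 ran the other way on the same axis. It rose with the dividing-cell score (r = 0.74, rho = 0.74, permutation p = 0.00051 and 0.00054, adjusted p = 0.0101 and 0.0125) and fell with the endothelial score (r = -0.75, rho = -0.78, permutation p = 0.0025 and 0.00129, adjusted p = 0.0331 and 0.0182) and the adipocyte score (r = -0.68, rho = -0.73, permutation p = 0.0043 and 0.00302, adjusted p = 0.0426 and 0.0332). For the dividing-cell score r was 0.73 without the 2 farthest mice and 0.74 within both the PBS and the clodronate mice, and 2.05% of genes had an r at least as large in size. For the endothelial and adipocyte scores r was -0.67 and -0.64 without the 2 farthest mice, and it lay between -0.61 and -0.81 within the 2 liposome groups. With these scores 1.63% and 5.53% of genes had an r at least as large in size. Without the 5 mice of high lymphocyte score r was -0.75 and -0.71, and neither passed (adjusted p = 0.0752 and 0.0862, permutation). The list of dividing-cell genes had 10 members, all used, whose summed level ran from 15.1 to 312 CPM over the mice. Only Top2a and Cdk1 of these lay above the floor in all mice, while Bub1, Ccnb1 and Aurkb were at it in 8, 7 and 6 mice. Low values of this score thus rest largely on floor values. With the lymphocyte score, used over the 17 mice without a high value, r was 0.69 (rho = 0.70, permutation p = 0.0055 and 0.00888, adjusted p = 0.0495 and 0.0799, and r = 0.68 without the 2 farthest mice), and 2.44% of genes had an r of that size. The same 17 mice entered when the 5 mice were left out of every relation, and the adjusted permutation p was then 0.0629.

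The 9 glucocorticoid-responsive genes were Tsc22d3, Fkbp5, Per1, Sgk1, Zbtb16, Mt1, Mt2, Cdkn1a and Klf9. They spread unequally over the mice, from 11.2 to 197 CPM for Cdkn1a but from 20.5 to 52.2 CPM for Fkbp5. Relations to single genes of this list were not tested. Egln3 followed their score (r = 0.74, rho = 0.74, permutation p = 0.00026 and 0.00063, adjusted p = 0.0101 and 0.0125). Its r was 0.77 without the 2 farthest mice, 0.77 within the PBS mice and 0.70 within the clodronate mice, and 0.514% of 9338 genes reached that size. Without the 5 mice of high lymphocyte score r was again 0.74, and the relation no longer passed (adjusted p = 0.0571, permutation over 17 mice). Ddit4, the target with a known glucocorticoid response, had r = 0.30 with the same score, and none of the other 7 genes passed with it.

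Ddit4 fell with the red-cell score of 5 globin and heme synthesis genes (r = -0.78, rho = -0.71, permutation p = 0.00032 and 0.00129, adjusted p = 0.0101 and 0.0182). The r was -0.71 without the 2 farthest mice, -0.68 within the PBS mice and -0.86 within the clodronate mice, and 0.118% of 9342 genes had an r of that size. Adm fell with the epithelial score (r = -0.68, rho = -0.71, permutation p = 0.00301 and 0.00217, adjusted p = 0.0331 and 0.0269, and r = -0.64 without the 2 farthest mice), 2.12% of genes had an r of that size, and without the 5 mice r was -0.71 (adjusted p = 0.0777, permutation). It rose with the dividing-cell score by Pearson r (r = 0.59, permutation p = 0.00274, adjusted p = 0.0331, and r = 0.61 without the 2 farthest mice) but not by Spearman's rho (rho = 0.56, permutation p = 0.0062, adjusted p = 0.0614), and 9.53% of genes had an r of that size with this score. This r was 0.53 without the 5 mice (adjusted p = 0.216, permutation). Without the 5 mice of high lymphocyte score 5 of the 99 relations passed, namely Bnip3 with the adipocyte, endothelial and dividing-cell scores (r = 0.86, 0.86 and -0.89), Ddit4 with the red-cell score (r = -0.80) and Slc2a1 with the dividing-cell score (r = 0.79).

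**Figure D4:**
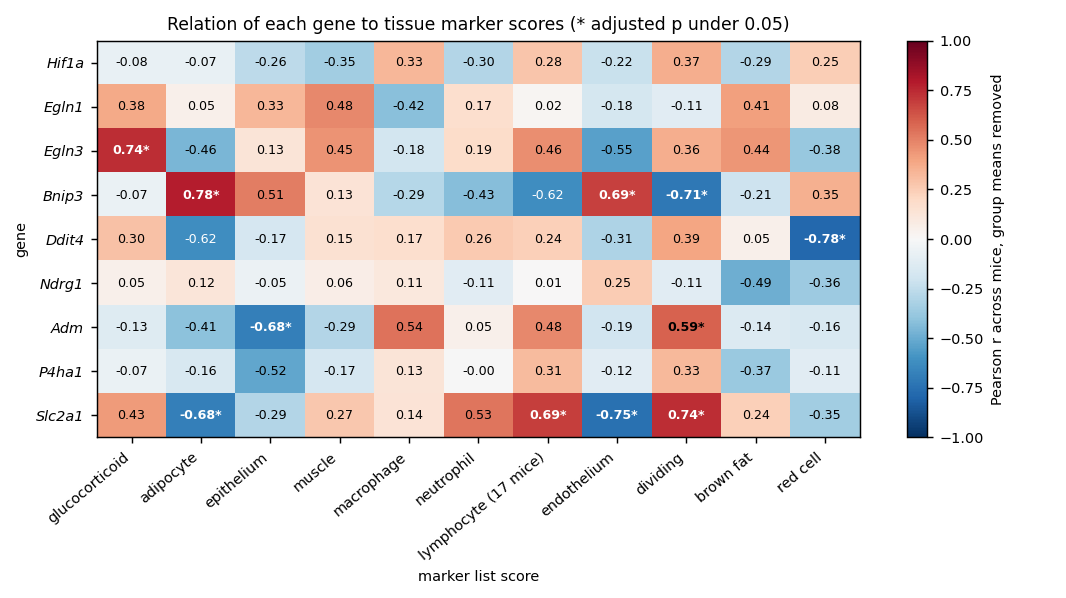
Pearson r across mice, group means removed, of the 9 tested genes (vertical axis) with 11 marker list scores (horizontal axis), on a colour scale from -1 to 1, with a star where the adjusted permutation p was under 0.05. Bnip3 and Slc2a1 have opposite signs for the adipocyte, endothelial and dividing-cell scores, and Hif1a, Egln1, Ndrg1 and P4ha1 have no star.

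**Figure D5:**
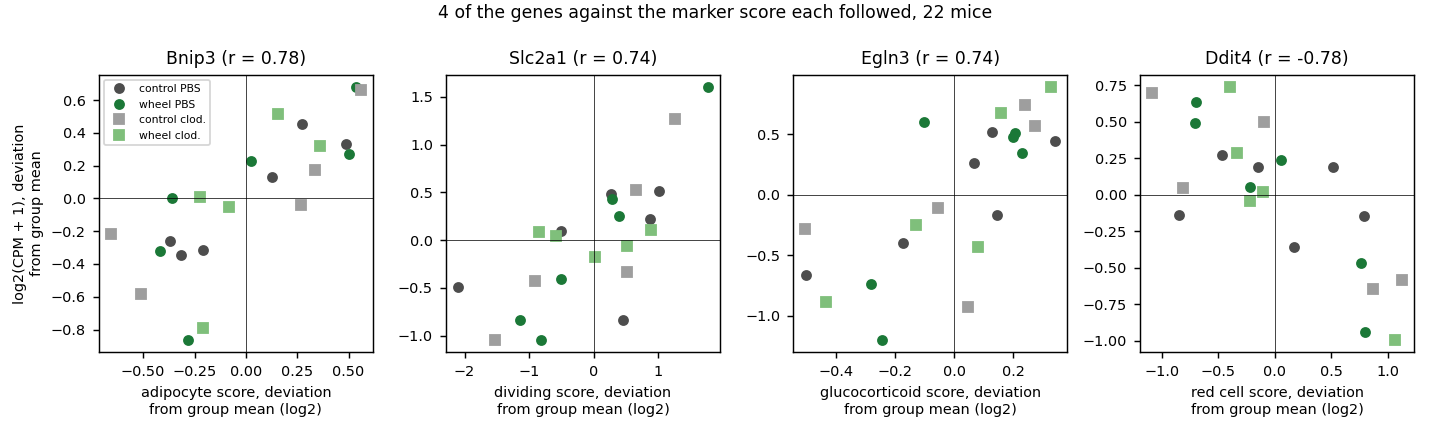
Deviation of log2(CPM + 1) from the group mean (vertical axes) against the deviation of a marker score from its group mean (horizontal axes, log2) for Bnip3, Slc2a1, Egln3 and Ddit4 in 22 mice, with colours for the groups. Mice of all 4 groups lie along each relation, with r = 0.78, 0.74, 0.74 and -0.78.

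The genes most like each of the 9 were sought among 9338 other genes above the floor in all mice, by the highest Pearson r over the 22 mice with group means removed. For Bnip3 these were Zfp503 (r = 0.90) and Adgrf5 (r = 0.89), for Slc2a1 Nup188 and Hdgf (r = 0.84 and 0.83), for Adm Pinx1 and Baz1a (r = 0.84 and 0.79) and for Hif1a Polr2e and Rtp4 (r = 0.83 and 0.82). For Ddit4 they were Rpl5 and Mapk8 (r = 0.82 and 0.80), for Egln3 Plec and Ubn2 (r = 0.81 and 0.78) and for Egln1 Phka1 and Prkab2 (r = 0.77 and 0.75). P4ha1 and Ndrg1 had the loosest neighbours, Fam98a and Rrp8 (r = 0.73 each) and Med15 and Nf1 (r = 0.72 and 0.71). Within the clodronate mice r was 0.27 for P4ha1 with Rrp8 and 0.55 for Hif1a with Rtp4, whereas Bnip3 with Zfp503 held 0.89. No other of the 9 genes stood in these neighbour lists, from which they were left out by the rule.

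Reads of some of these genes can be shared. In the mouse annotation of build GRCm38 the last 400 bases of Bnip3 match the genes Gm16439 and Gm6532 over up to 302 bases at an identity of at least 97%, and the 3′ end of Hif1a is overlapped by Gm49321 on its own strand and by Gm15283 on the other. Genes on the opposite strand overlap the last 400 bases of Bnip3 (Gm45507), Ndrg1 (Gm17035), Adm (Gm28863) and Slc2a1 (Gm12868). How the counting treated strand is not given in the sources used here, so the levels of Bnip3 and Hif1a in particular may include or lack such reads.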

How the data were processed

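Total RNA of whole mammary tissue was made into libraries with the Lexogen QuantSeq 3′ FWD kit, which reads transcript 3′ ends. Per the labels, the authors mapped the reads with STAR 2.5.3a to build GRCm38. They deposited a signal for each gene symbol in CPM, with values under 1 raised to 1, on a scale that took in unmapped reads. Depth was read from these values, and 0 columns lacked a sample. Rows for unmapped, multimapping, unassigned and ambiguous reads were left out, and 106 symbols listed more than once were each used once. Values were analysed as log2(CPM + 1), a scale that understates changes of low genes, with limma 3.58.1 in R 4.3.3 over the 15138 genes that 5 or more mice showed above the floor, as 4 group means with a variance trend and Benjamini-Hochberg adjustment. Count tests were not used, because the floor removes low counts. Relations across mice used 100000 permutations within groups in scipy 1.17.1. Marker scores were means over the list genes that passed the same filter. The 10 genes and all lists were chosen with earlier results of these data known. The pathway genes named were the ones past adjusted p 0.05, or otherwise the 1 with the smallest p per list and comparison, and the most alike genes were the 2 with the highest r. The limma steps were tested on simulated data of 15140 genes with 200 changed, in which 1 and 17 unchanged genes were called at log2 changes of 1 and 2. Alternatives were other pseudocounts, filters, scalings and fits, a replicate block, leaving out each mouse, and leaving out 5 mice with a lymphocyte score above 3. The fit with the adipocyte score as a covariate was added after seeing the data.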

Additional observations from a re-analysis of the deposited data

Results flagged for a closer look

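A mouse far from the others of its group was looked for in 81 sets of values, those of each of the 9 tested genes, of Car9 and of the marker scores within groups of 5 or 6 mice. By Dixon's limit 6 were found, where chance alone gives about 4 (1 in 20). Egln1 stood highest in sedentary control mouse 2 with clodronate liposomes, at 6.04 on the log2(CPM + 1) scale where the next mouse had 5.34. The same mouse had the highest score of 10 muscle genes among all mice, 10.4, where the median of its group was 6.25. Egln1 had r = 0.48 with that score (adjusted p = 0.215, permutation), 0.78 within the clodronate mice and 0.0014 within the PBS mice. The part of muscle content in the Egln1 value was not tested. Among wheel-running mice with clodronate liposomes, mouse 2 had Car9 at 1.11 on that scale, with all others of the group at the floor value of 1, so that any value above the floor would have been found and the result says nothing of spread. The lowest macrophage score among wheel-running mice with PBS liposomes was that of mouse 5, 4.07, next to 4.81. Lymphocyte scores stood apart in sedentary control mouse 2, at 4.52 against a next value of 1.65, and in wheel-running mouse 3, at 4.86 against 1.58, both with PBS liposomes. The highest red-cell score of the wheel-running mice given clodronate was that of mouse 1, 9.23, next to 8.05, and Ddit4 was the lowest of that group, 22.8 CPM, in the same mouse.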

How the results depend on the processing

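No tested gene of the pathway passed an adjusted p of 0.05 under any alternative in any comparison. Ranges of p were taken over the 9 genes in the wheel comparison with PBS liposomes. From the other comparisons they took only genes with an unadjusted p under 0.1 or the smallest p. For these the limma adjusted p was 0.185 to 1 over the other settings and 0.217 to 1 without 1 mouse. Over the 9 genes and 6 comparisons, 590 of 630 estimates under those settings kept their sign and 40 turned, from a size as reported of at most 0.35. Egln3 for clodronate in wheel-running mice went from -0.19 to 0.71 without the 5 mice of high lymphocyte score, and Bnip3 there from -0.35 to 0.11 with the adipocyte score as a covariate, under which Slc2a1 in the wheel comparison with clodronate liposomes went from 0.23 to -0.21. The remaining turned estimates that are given singly in the text were near 0 in wheel-running against sedentary control mice with PBS liposomes. With upper-quartile scaling Hif1a was 0.072, Egln1 0.011, Bnip3 0.097, P4ha1 0.053 and Slc2a1 0.018, on the log2 scale. With scaling to assigned reads Hif1a was 0.0047 and Bnip3 0.028, and Bnip3 was 0.044 with the adipocyte score as a covariate and 0.10 without the 5 mice of high lymphocyte score. Leaving out 1 mouse gave -0.13 to 0.049 for Hif1a, -0.17 to 0.016 for Egln1, -0.14 to 0.17 for Bnip3, -0.23 to 0.25 for P4ha1 and -0.40 to 0.13 for Slc2a1. Bnip3 with clodronate liposomes ran from -0.74 to -0.39, the latter without wheel-running mouse 4. Upper-quartile scaling moved the share of all genes with a negative estimate from 63.8% to 50.2% with PBS liposomes and, for clodronate in sedentary control mice, from 65.4% to 51.1%. Relations of genes to marker scores that passed fell from 11 to 5 without the 5 mice of high lymphocyte score and were 9 or 10 under the other settings. Over all genes the 31 calls for clodronate over both activity groups became 54 when only genes averaging 5 CPM or more were kept, 24 with no filter beyond 1 mouse above the floor, 20 without the variance trend, 12 with upper-quartile scaling, 15 with scaling to assigned reads, 0 with the adipocyte covariate or without the 5 mice, and 9 to 146 without 1 mouse. The wheel comparison with clodronate liposomes gave 0 to 236 such calls without 1 mouse. A filter that kept all symbols could not be used, since genes at the floor in all mice have no spread. Correlations of the deviations of same-numbered mice were -0.25 to 0.11 in 6 PBS pairs, 1 of them over 0.1, and -0.12 to 0.52 in 5 clodronate pairs, 3 of them over 0.1. Of 12 PBS mice 0, and of 10 clodronate mice 4, correlated best with their own number, and no label ties a number to a shared cage or day, so the numbers were not taken as pairs. With the replicate block 0 genes of the pathway passed in each comparison, and the 31 calls became 11. The cause of these shifts was not tested. The floor of up to 20 reads limits Car9 and the lowest Adm values.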
